A study of Mus musculus with 30 samples.

Results

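The genes described here are 9 genes of mitochondrial dynamics and turnover, taken by name from the rows of the raw count table: Mfn1, Mfn2 and Opa1 for fusion, Dnm1l, Fis1 and Mff for fission, and Pink1, Bnip3l and Fundc1 for mitophagy. They were 9 of 55487 genes in the table, and all 9 were among the 15907 genes that passed the filter on low counts. They were measured by RNA-sequencing in C2C12 cells, a mouse myoblast line that fuses into multinucleated myotubes when serum is lowered. All 30 libraries came from wild-type C2C12 myotubes in low glucose medium, which were differentiated for 4 days and then kept for a further 4 days under 1 of 5 conditions, for 8 days in all. The groups, with 6 libraries each, were 2% horse serum (2% HS), serum deprivation (SD), and serum deprivation with 100 nM metformin (MET), with 500 nM leucine (LEU) or with both (MET+LEU). The labels did not say whether replicates were separate cultures of this one line, so p-values measure only the spread between these samples.

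Mitochondria fuse and divide continuously. Mitofusins join the outer membranes and Opa1 the inner membranes, whereas the dynamin Dnm1l is drawn to the outer membrane by adaptors such as Mff and constricts it. Damaged mitochondria are removed by mitophagy, either through Pink1, a kinase that builds up on depolarized mitochondria and starts their marking with ubiquitin, or through receptors such as Bnip3l and Fundc1 that bind the autophagosome coat directly. In skeletal muscle these genes are known for their part in keeping the mitochondrial network intact and in fiber wasting.

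Libraries held 12784960 to 19604103 counts. The summed level of 8 myotube markers was 26487 to 39828 CPM (counts per 10⁶ normalised counts) in every library, that of 6 cycling myoblast markers was 274 to 383 CPM, and macrophage (1.66 to 4.43 CPM), endothelial (0.324 to 1.14 CPM), adipocyte (at most 0.229 CPM) and osteoblast (4.18 to 8.01 CPM) marker sums were low, with Adgre1 and Lep at 0 in all 30 libraries. MET+LEU replicate 6 stood apart: 5.85% of its counts were nuclear rRNA and 7.64% mitochondrial rRNA, against at most 1.96% and 0.76% elsewhere. Of the values recomputed without it, those that change their call, or move by over 1.5 times, are given both ways.

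In GRCm38 the fusion genes lie at chr3:32529465-32579239 (Mfn1), chr4:147873599-147904704 (Mfn2) and chr16:29579334-29654884 (Opa1). The fission genes lie at chr16:16312230-16358959 (Dnm1l), chr5:136953275-136966234 (Fis1) and chr1:82724890-82752394 (Mff). The mitophagy genes lie at chr4:138313409-138326307 (Pink1), chr14:66985239-67008877 (Bnip3l) and chrX:17556564-17572325 (Fundc1). All are protein-coding, and their counts are over exons. Exons of Dnm1l overlap the antisense gene Gm49521 by 243 bp, and those of Mff overlap C430014B12Rik on the other strand by 195 bp. These neighbours held at most 6 and 18 counts in any library, and the Bnip3l pseudogene Bnip3l-ps at most 23, against at least 1166 counts for Bnip3l itself. The strand setting and the handling of multi-mapped reads are not given in the sources used here, so reads of a gene and its antisense partner may not be separated.

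Sequences before the transcription start are shown for the pair of members that moved in opposite directions with MET+LEU, Mfn2 and Dnm1l, and for Bnip3, the paralog of Bnip3l that showed the lowest log2 fold change of the pathway genes under serum deprivation. They are the 250 bases before the most upstream RefSeq start (GRCm38.p6), written 5′ to 3′ in the sense of the gene, with every motif match in capitals. RefSeq windows were matched for 8 of the 9 genes, not for Bnip3l. The Fundc1 window, chrX:17572008-17572257 on the minus strand, lies inside the gene as placed above, after its annotated start. It is therefore not a sequence before that start. It held no motif match but is counted among the 8.
Mfn2, chr4:147904910-147905159, minus strand: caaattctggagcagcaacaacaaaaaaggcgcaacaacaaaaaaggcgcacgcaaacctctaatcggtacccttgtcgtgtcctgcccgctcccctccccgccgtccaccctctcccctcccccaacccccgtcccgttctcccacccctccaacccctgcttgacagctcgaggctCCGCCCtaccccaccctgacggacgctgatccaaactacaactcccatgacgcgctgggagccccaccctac
Dnm1l, chr16:16359032-16359281, minus strand: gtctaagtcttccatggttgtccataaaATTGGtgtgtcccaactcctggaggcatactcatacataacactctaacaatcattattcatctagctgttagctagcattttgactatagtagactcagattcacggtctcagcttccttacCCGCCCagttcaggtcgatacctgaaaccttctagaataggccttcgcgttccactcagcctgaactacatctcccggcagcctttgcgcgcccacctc
Bnip3, chr7:138909507-138909756, minus strand: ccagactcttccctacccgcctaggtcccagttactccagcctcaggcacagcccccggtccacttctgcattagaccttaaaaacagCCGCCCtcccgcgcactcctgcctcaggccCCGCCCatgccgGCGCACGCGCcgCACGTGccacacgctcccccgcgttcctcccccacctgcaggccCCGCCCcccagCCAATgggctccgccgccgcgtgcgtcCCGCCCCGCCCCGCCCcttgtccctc

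The motifs searched, on both strands, were the NRF1 element (GCGCA, any base, GCGC), the hypoxia response core ACGTG, the E-box CACGTG (which contains that core), the estrogen-related receptor element AAGGTCA, the CCAAT box CCAAT, the GC box GGGCGG, the ETS core CCGGAAG, the MEF2 element (CTA, any 4 bases, TAG) and the TATA box TATAAA. A GC box was found in 7 of the 8 members' windows, against 33% of all 27025 windows, and a CCAAT box in 5 of 8, against 34.5%. The 27025 windows were not restricted to genes that passed the filter on low counts, as all members did. The NRF1 element was found in Opa1 and Pink1 (3.87% of all windows) and the ETS core in Mfn1 and Fis1 (7.07%). No member's window held the E-box (6.04% of all), the hypoxia core (16.5%), the receptor element (4.04%), the MEF2 element (3.23%) or the TATA box (13%). The Bnip3 window held the E-box, with the hypoxia core inside it, 108 bases before the start. It also held an NRF1 element 120 bases and a CCAAT box 53 bases before the start, and 6 GC boxes. A match is a description of the letters and not of binding.

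Levels between genes were compared per kilobase of exon. Over all 30 libraries the mean level was highest for Pink1 (42.8 CPM per kb, at the 94.4th percentile of tested genes) and Fis1 (35.0 CPM per kb), followed by Mfn2 (26.4), Dnm1l (26.3) and Bnip3l (25.4 CPM per kb). Opa1 (14.5), Fundc1 (10.6), Mff (10.4) and Mfn1 (9.67 CPM per kb, at the 69.7th percentile) were lower. Thus Mfn2 mRNA was more abundant than that of its paralog Mfn1 in each group, at 24.8 to 27.8 against 9.38 to 10.2 CPM per kb in the group means. Across groups the 9 genes moved little. When the 5 group means of each gene were put in order, the only neighbours that differed beyond their spread were 2% HS and MET+LEU for Bnip3l.

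**Figure D1:**
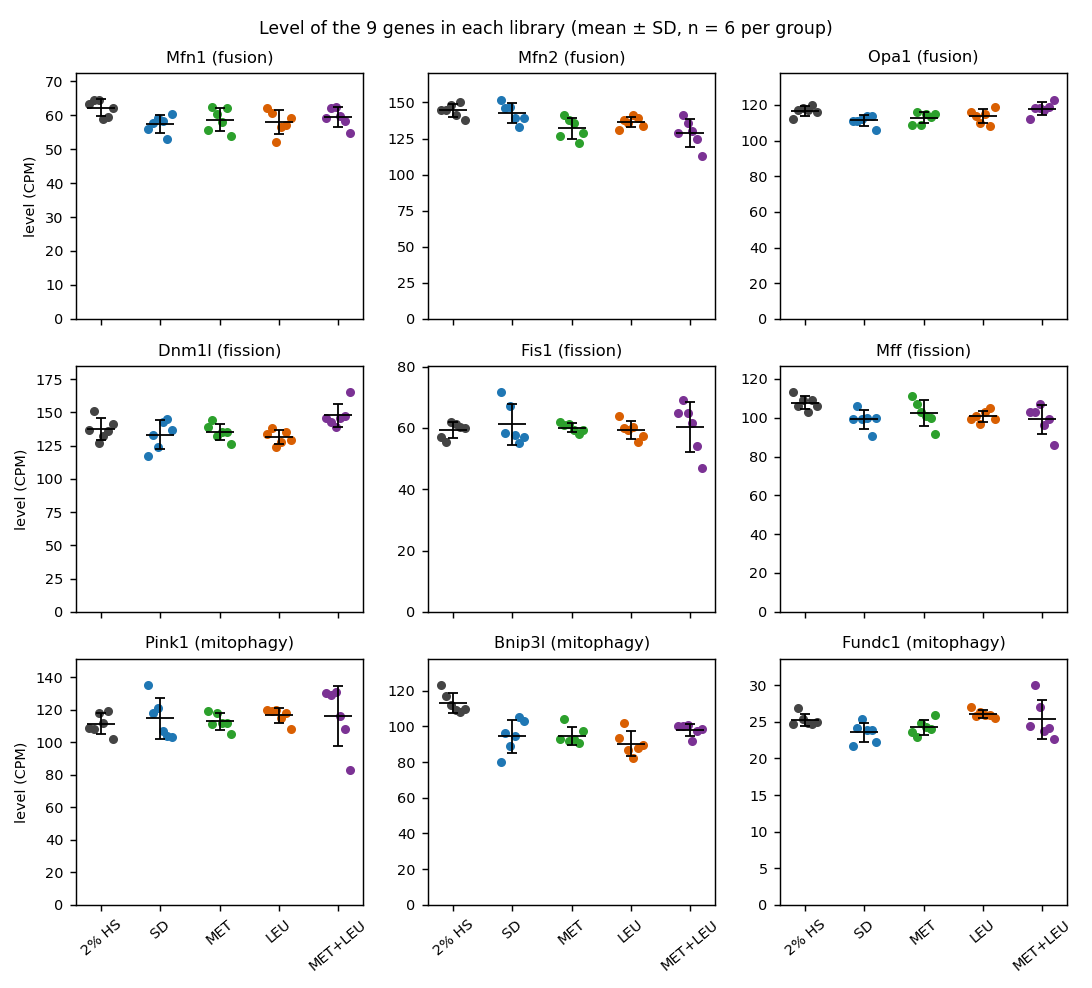
Level of each of the 9 genes in counts scaled to library size (CPM, vertical axis from 0) in the 30 libraries, by group; points are libraries and bars the mean ± SD of 6. The Bnip3l points of the 4 groups without serum all lie under those of 2% HS, whose lowest library was at 108 CPM, and MET+LEU replicate 6 is the lowest Pink1 point, at 83.0 CPM.

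Serum deprivation was first compared with 2% HS, to ask which of these genes respond to loss of serum. Bnip3l fell by 16.6% and Mff fell by 7.87%, and the other 7 did not pass the test (edgeR's quasi-likelihood test, Benjamini-Hochberg adjusted over 15907 genes, adjusted p under 0.05). These 2 of 9 stand against 27.8% of all tested genes called in this comparison, 13.9% in the downward direction; 4 of the 9 and 37.9% of all genes had an unadjusted p under 0.05. The median log2 fold change of the 9 genes was -0.07, against 0.00 for all genes, and the median of its size was 0.07, against 0.14.

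Bnip3l, which encodes the mitophagy receptor also called NIX, was the member with the clearest pattern. In 2% HS its level ran from 108 to 123 CPM (median 111), and in SD from 79.98 to 104.6 CPM (median 95.2). Every SD library was under every 2% HS library, a separation in this direction shown by 7.42% of all tested genes. The log2 fold change was -0.26 (SE 0.05, adjusted p = 5.0e-05). The treated groups without serum were also low: MET ran from 90.5 to 104 CPM (median 92.8), LEU from 82.1 to 102 CPM (median 88.6) and MET+LEU from 91.8 to 101 CPM (median 99.2), with no library of the 3 groups as high as any in 2% HS. Such separation under 2% HS was seen for 9.53% of all tested genes in LEU, 10.5% in MET and 9.51% with both. Against 2% HS the log2 fold change was -0.32 in LEU (adjusted p = 1.0e-06), -0.25 in MET (adjusted p = 5.7e-05) and -0.21 with both agents (adjusted p = 7.6e-04). Called genes made up 35.0% of all in MET vs. 2% HS (17.5% down) and 29.7% in LEU vs. 2% HS (15.3% down). These comparisons share the 2% HS libraries. None of the treatments moved Bnip3l from SD past the threshold, with 95% intervals of the log2 difference of -0.09 to 0.11 for MET, -0.16 to 0.04 for LEU and -0.05 to 0.16 for MET+LEU. In bulk RNA, less transcript per cell and fewer cells holding it cannot be told apart. The summed myotube markers also moved with serum, at 36793 to 39828 CPM in 2% HS and 30017 to 32379 CPM in SD. Most of this sum was Ttn, with means of 30972 and 24592 CPM. Ckm, Acta1, Tnnt3, Mymk and Actn2 were also lower in SD, but Myog (1032 and 1070) and Myh3 (1041 and 1101) were not. The summed cycling myoblast markers were at 356 to 383 and 316 to 357 CPM. In that list the means of Pax7 (190 and 147 CPM) and Myf5 were lower in SD. Those of Mki67 (76.8 and 79.5), Top2a (57.3 and 63.0) and Cdk1 (12.9 and 14.3) were higher, and Ccnb1 was at 10.0 CPM in both. The part of these markers in these results was not tested.

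Mff, the outer membrane adaptor of Dnm1l, ran from 103 to 113 CPM (median 107) in 2% HS and from 90.7 to 106 CPM (median 99.5) in SD, so the groups overlapped. Its log2 fold change was -0.12 (SE 0.04, adjusted p = 0.0361). With a correction for the GC content of transcripts it was -0.02 (adjusted p = 0.837), and without SD replicate 5 it was -0.10 (adjusted p = 0.0966). The call was also lost with -0.11 without 2% HS replicate 1 (adjusted p = 0.0808) or 5 (adjusted p = 0.0647), and with -0.12 without 2% HS replicate 3 (adjusted p = 0.0528) or SD replicate 3 (adjusted p = 0.0512). Mfn1, a mitofusin, had a similar log2 fold change of -0.12 (SE 0.05) that missed the threshold (adjusted p = 0.0519). It passed without MET+LEU replicate 6 (-0.12, adjusted p = 0.0311). Its range was 59.0 to 64.6 CPM in 2% HS and 52.9 to 60.2 CPM in SD. Opa1, the inner membrane fusion GTPase, was at -0.07 (adjusted p = 0.122) and Fundc1, a mitophagy receptor, at -0.10 (adjusted p = 0.209). For the rest the 95% intervals of the log2 difference were -0.10 to 0.07 for Mfn2, -0.14 to 0.05 for Dnm1l, -0.08 to 0.18 for Fis1 and -0.11 to 0.21 for Pink1.

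**Figure D2:**
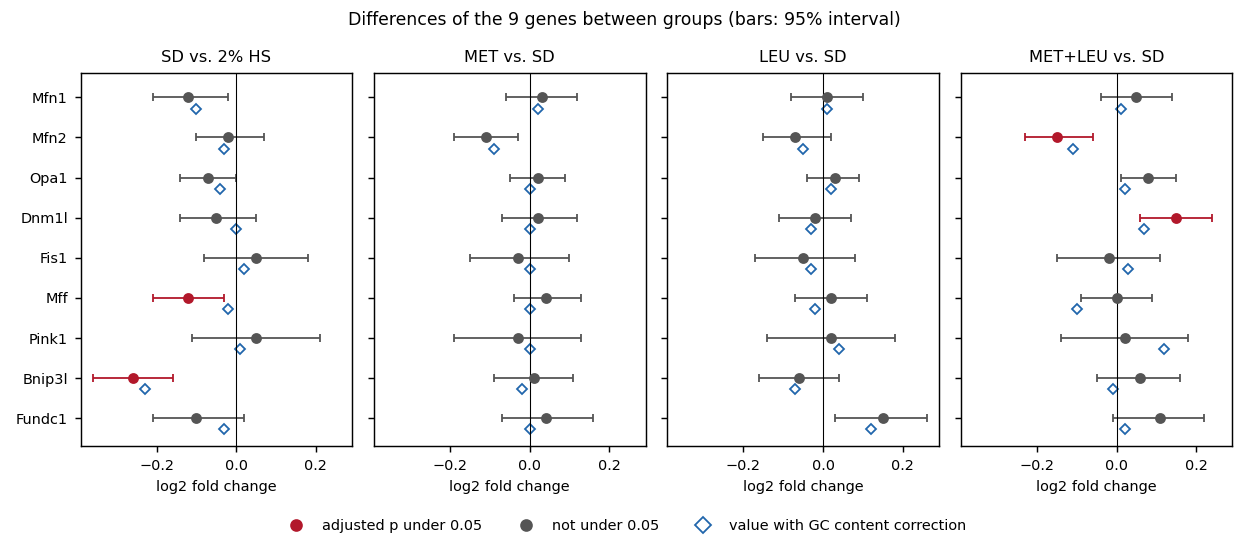
Log2 fold change (horizontal axis) of the 9 genes in 4 comparisons; circles with bars are the value and its 95% interval, red where the adjusted p was under 0.05, and open diamonds the value after the GC content correction. Bnip3l in SD vs. 2% HS (-0.26) keeps nearly the same value after the correction (-0.23), whereas Mff in that comparison goes from -0.12 to -0.02 and Dnm1l in MET+LEU vs. SD from 0.15 to 0.07.

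Metformin and leucine alone were then each compared with SD, to ask whether either agent altered these genes during serum deprivation. Both comparisons, and that of MET+LEU, share the SD libraries. None of the 9 genes passed the test with MET or with LEU, and none did so with DESeq2; at an unadjusted p under 0.05 there was 1 gene in each. Across all tested genes 0.157% were called with MET and 0.553% with LEU, while 10.0% and 9.98% had an unadjusted p under 0.05. The gene with MET was Mfn2, a mitofusin that also tethers mitochondria to the endoplasmic reticulum, which ran from 122 to 141 CPM (median 133) against 133 to 152 CPM (median 143) in SD. Its log2 fold change was -0.11 (SE 0.04, adjusted p = 0.321), and the groups overlapped. The gene with LEU was Fundc1, which ran from 25.59 to 26.97 CPM (median 25.9) against 21.7 to 25.4 CPM (median 23.9) in SD. All 6 LEU libraries were above all 6 SD libraries, as in 0.786% of tested genes, but the log2 fold change of 0.15 (SE 0.06) did not survive adjustment (adjusted p = 0.329). The other members lay between -0.03 and 0.04 with MET and between -0.07 and 0.03 with LEU.

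The combination was compared with SD to ask what both agents did together. Mfn2 fell by 9.65% and Dnm1l, the fission dynamin, rose by 10.7%, and the other 7 did not pass the test. These were 1 of 9 in each direction, against 10.6% of all tested genes called up and 7.80% called down, 18.4% in all. The median size of the members' log2 fold changes was 0.06, against 0.12 for all genes. Other measures also separated these groups. The summed cycling myoblast markers were at 274 to 300 CPM in MET+LEU and 316 to 357 CPM in SD. Mitochondrial rRNA was 0.649% to 7.64% of counts (median 0.708%) against 0.281% to 0.367%, higher in all 6 MET+LEU libraries. Its share was also above every SD library in LEU, at 0.501% to 0.71% (median 0.588%). In MET it was 0.244% to 0.705% (median 0.547%). The part of these measures in the results of this comparison was not tested.

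In MET+LEU, Mfn2 ran from 113 to 141 CPM (median 129), against 133 to 152 CPM in SD. The ranges overlapped, and the lowest value was that of replicate 6. The log2 fold change was -0.15 (SE 0.04, adjusted p = 0.00931), it was -0.11 with the GC content correction (adjusted p = 0.0187) and it was -0.12 without MET+LEU replicate 6 (adjusted p = 0.0284). When only the 2 groups entered the fit, the value was -0.14 and the adjusted p was 0.0890. Against 2% HS, in which Mfn2 ran from 138 to 150 CPM, the log2 fold change was -0.16 (adjusted p = 0.00134) in MET+LEU and -0.13 (adjusted p = 0.0133) in MET, whereas that in LEU was -0.08 (adjusted p = 0.135). SD itself was at -0.02 to 2% HS. The group means therefore ran from 144 CPM in 2% HS and 143 CPM in SD through 136 in LEU and 132 in MET to 129 CPM in MET+LEU, with no neighbours in this order differing past the threshold.

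Dnm1l ran from 139 to 165 CPM (median 146) in MET+LEU and from 117 to 145 CPM (median 135) in SD. Replicate 6 of MET+LEU was highest, and the next library was at 147 CPM. The log2 fold change was 0.15 (SE 0.05, adjusted p = 0.0183). It did not hold its call with the GC content correction (0.07, adjusted p = 0.158), in the fit of the 2 groups alone (0.15, adjusted p = 0.0969), without MET+LEU replicate 6 (0.11, adjusted p = 0.0865), without SD replicate 1 (0.10, adjusted p = 0.110) or without SD replicate 3 (0.12, adjusted p = 0.0790). The transcript-GC trend of a library, the slope of its log2 CPM deviations on GC content, was -0.214 per 10 percentage points in MET+LEU replicate 6 and 0.180 in SD replicate 1, the extremes of all 30 libraries. The longest Dnm1l transcript is 40.9% GC and that of Mfn2 53.1%, against a median of 49.0% in tested genes.

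MET+LEU was next set against each agent alone. Dnm1l rose by 12.1% from LEU (log2 fold change 0.16, SE 0.05, adjusted p = 0.0227), and no other member was called, 1 of 9 against 6.28% of all genes called, 4.61% upward. In LEU its level ran from 124 to 138 CPM (median 132), so every MET+LEU library was above every LEU library, as in 2.73% of tested genes in that direction. This call was also lost with the GC content correction (0.10, adjusted p = 0.0745), with upper-quartile normalization (0.15, adjusted p = 0.0598), in the fit of the 2 groups alone (0.15, adjusted p = 0.0521) and without MET+LEU replicate 6 (0.12, adjusted p = 0.111). Other single libraries also took it away: the value was 0.14 without LEU replicate 3 (adjusted p = 0.0983), and 0.15 without LEU replicate 4 (adjusted p = 0.0744) or MET+LEU replicate 5 (adjusted p = 0.0507). From MET none of the 9 was called by edgeR or DESeq2, 1 had an unadjusted p under 0.05, against 22.6% of all genes, and 8.69% of all genes were called. For Dnm1l the log2 fold change was 0.12 (adjusted p = 0.0796). Without MET+LEU replicate 6, 457 of all genes were called from LEU (999 with it) and 726 from MET (1382 with it). The interaction of MET and LEU, which asks whether the effect of both differs from the sum of the single effects on the log2 scale, was called for none of the 9 genes by either tool and for 0.0503% of all genes. Its largest member value was 0.14 for Dnm1l (SE 0.06, adjusted p = 0.511), the 1 member at an unadjusted p under 0.05, as were 8.73% of all genes.

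Compared with 2% HS, MET+LEU had 3 of 9 members called, all down, against 42.3% of tested genes called and 20.3% down. These were Bnip3l (-0.21) and Mfn2 (-0.16), given above, and Mff, whose log2 fold change was -0.12 (SE 0.04, adjusted p = 0.0246). Mff ran from 85.9 to 107 CPM (median 101) in MET+LEU, overlapping 2% HS, and its call was lost without MET+LEU replicate 6 (-0.09, adjusted p = 0.0655) and with the GC content correction (-0.12, adjusted p = 0.139). Pink1 was not called with all libraries and no correction, at a log2 fold change of 0.07 (adjusted p = 0.534), but it was at 0.12 with the GC content correction (adjusted p = 0.0275) and 0.13 without replicate 6 (adjusted p = 0.0468). In MET+LEU it ran from 83.0 to 131 CPM (median 122), with replicate 6 the lowest, against 102 to 119 CPM (median 111) in 2% HS.

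Fis1 and Pink1, an outer membrane fission protein and the mitophagy kinase, had the widest spreads in SD and MET+LEU. The coefficient of variation over libraries was 10.9% for Fis1 and 10.6% for Pink1 in SD, and 13.6% and 16.1% in MET+LEU. Without MET+LEU replicate 6 the latter were 9.02% and 8.37%, and Fundc1 was widest at 10.1%. In the other groups the widest spread was that of Dnm1l in 2% HS (6.02%), Mff in MET (6.49%) and Bnip3l in LEU (7.79%). Within groups the levels of several members varied together. After removing group means, Pearson's r of log2 CPM over 30 libraries was 0.88 between Fis1 and Pink1, 0.74 between Mfn2 and Pink1, and 0.70 between Mfn2 and Fis1. Dnm1l ran against them, with r of -0.69 to Fis1, -0.65 to Pink1 and -0.52 to Mfn2, and with Bnip3l (r = 0.57). Without MET+LEU replicate 6 the first 3 values were 0.80, 0.58 and 0.53, and those of Dnm1l were -0.61, -0.55, -0.38 and 0.62. Pink1 (59.0% GC), Fis1 (54.4%) and Mfn2 (53.1%) were the 3 members above the median GC content, and the other 6 were below it; Mff, at 37.3% GC the lowest, had r of 0.66 to Pink1 (0.43 without that replicate). The points share library depth and GC trend, and the part of the latter was not tested.

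**Figure D3:**
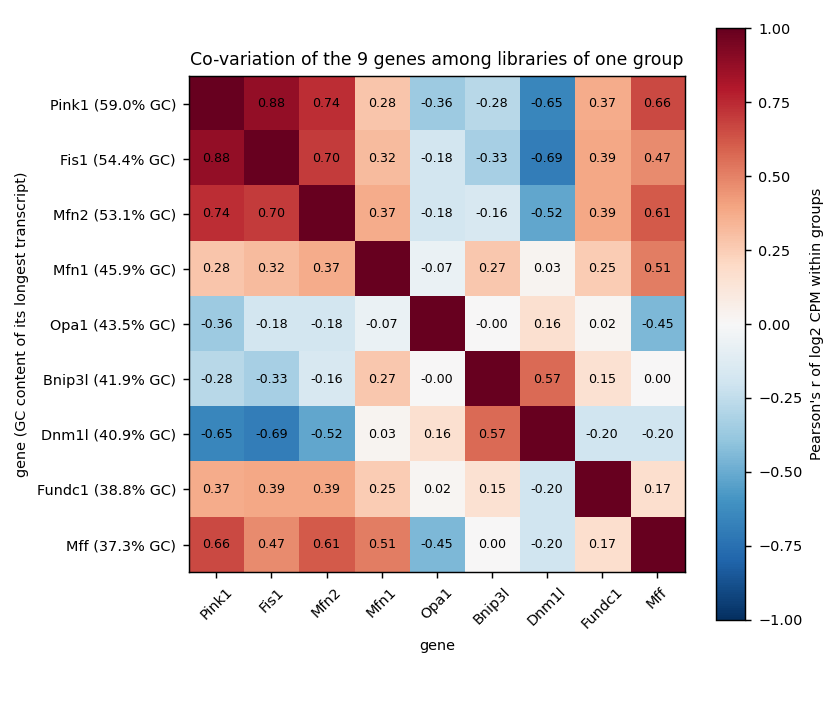
Pearson's r of log2 CPM between each pair of the 9 genes over 30 libraries after removing group means, with genes on both axes ordered by the GC content of their longest transcript. The 3 GC-rich genes Pink1, Fis1 and Mfn2 form a block with r of 0.70 to 0.88, and Dnm1l has r of -0.52 to -0.69 with them.

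For each member the 3 genes with the most similar pattern were taken by Pearson's r of log2 CPM over the 30 libraries. These r values keep the differences between groups. They include MET+LEU replicate 6 and were not recomputed without it, and the part of the GC trend was not tested. Bnip3l was nearest to Jade1 (0.89), Pdk1 (0.88), a kinase that shuts off pyruvate dehydrogenase, and Slc30a9 (0.88). Mfn2 was nearest to the alpha-tubulin gene Tuba1b (0.91), 2310022B05Rik (0.88) and Ric8a (0.87). Dnm1l was nearest to the dynein adaptor gene Hook3 (0.90), Pcmtd1 (0.89) and the nucleoporin gene Ranbp2 (0.89). The autophagy adaptor Sqstm1 was near both Fis1 (0.88) and Pink1 (0.86). Besides it, Fis1 was nearest to Pink1 (0.86) and Atp5o (0.84), and Pink1 to Cst3 (0.87) and Myl4 (0.86). Mff was nearest to Stradb (0.85), Sdc4 (0.81) and Snx27 (0.79), Opa1 to Mylip (0.72), Zeb1 (0.72) and Ssx2ip (0.71), and Mfn1 to Gzf1, Pkdcc and Kcnk5 (0.69 each). Fundc1 had the weakest likeness, to the cytochrome c oxidase subunit gene Cox7c (0.64), the autophagosome protein gene Gabarap (0.59) and Gm24447 (0.58).

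The members were set beside 69 other genes of the same processes, of which 67 were tested. Under serum deprivation 9 of these rose and 8 fell, 17 in all, with a median log2 fold change of 0.03. Over all tested genes 27.8% were called in this comparison, 13.9% downward, and each list below is to be read against these shares. Among mitophagy receptors, 3 of the 8 that were not members rose and 2 fell. Bnip3, the hypoxia-inducible paralog of Bnip3l, fell from 123 to 167 CPM (median 136) in 2% HS to 66.6 to 101 CPM (median 87.9) in SD, with no overlap (log2 fold change -0.70, SE 0.11, adjusted p = 2.3e-05). Its range was 67.3 to 106 CPM in LEU, 66.8 to 92.3 CPM in MET and 73.2 to 103 CPM with both agents, each under the lowest 2% HS library. Such separation under 2% HS was shown by 7.42% of all tested genes in SD, 9.53% in LEU, 10.5% in MET and 9.51% with both. Nipsnap2, a matrix protein that can mark damaged mitochondria for autophagy, fell (-0.19, adjusted p = 5.2e-04), and Tomm7, a subunit of the outer membrane import channel, rose (0.31, adjusted p = 0.0238). The Tomm7 call was lost in the fit of the 2 groups alone (0.31, adjusted p = 0.0540), without 2% HS replicate 2 (0.27, adjusted p = 0.0616) or 6 (0.23, adjusted p = 0.0736), and without SD replicate 1 (0.28, adjusted p = 0.0624) or 3 (0.23, adjusted p = 0.0923).

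In the list of Pink1 and ubiquitin enzymes of mitophagy, Pink1 itself had a log2 fold change of 0.05 under serum deprivation (adjusted p = 0.701). The ligase gene March5 rose (0.15, adjusted p = 0.00673). Among 9 adaptors and kinases, Ulk1, the autophagy-starting kinase, fell from 164 to 175 CPM to 121 to 151 CPM (-0.35, adjusted p = 2.2e-08), Calcoco1 fell (-0.20, adjusted p = 1.3e-04) and Tax1bp1 rose (0.17, adjusted p = 0.00213). Of 12 genes for Opa1 processing and inner membrane scaffolds, Chchd10 (-0.58, adjusted p = 2.0e-05) and the protease Htra2 (-0.28, adjusted p = 2.6e-04) fell and prohibitin Phb rose (0.18, adjusted p = 0.00876). In the fission list, 2 of 10 other genes rose, the formin Inf2 (0.34, adjusted p = 1.6e-08) and the Dnm1l receptor Mief1 (0.12, adjusted p = 0.0358), and Mtfr1l fell (-0.19, adjusted p = 0.00617). The Mief1 call was lost with upper-quartile normalization (0.11, adjusted p = 0.0546) and without 2% HS replicate 1 (0.09, adjusted p = 0.120) or 2 (0.11, adjusted p = 0.0811) or SD replicate 1 (0.09, adjusted p = 0.129), 2 (0.11, adjusted p = 0.0771) or 3 (0.12, adjusted p = 0.0534). None of 8 MICOS and cristae genes was called, nor was the 1 other tested fusion gene, and the transport adaptor Trak2 alone of 9 transport genes rose (0.19, adjusted p = 1.1e-05).

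With MET+LEU, 15 of the 67 genes rose and 5 fell from SD. Over all tested genes 10.6% were called up and 7.80% down, and the lists below are to be read against these shares. Without MET+LEU replicate 6 the counts among the 67 genes were 10 up and 4 down. In the fit of the 2 groups alone they were 7 and 3, and with the GC content correction 16 and 2. The list of genes of MICOS, a complex that shapes cristae, and of other cristae genes had 4 of 8 genes up and none down. Of these Chchd3 ran from 77.2 to 102 CPM in MET+LEU and from 66.4 to 73.0 CPM in SD (log2 fold change 0.25, SE 0.05, adjusted p = 3.0e-04). The share of all tested genes separated in this way is not given here. Minos1 was at 0.54 (adjusted p = 0.00252) and Apoo at 0.27 (adjusted p = 0.00961). Minos1 ran from 46.4 to 102 CPM (median 54.3) in MET+LEU, and without replicate 6 it was at 0.34 (adjusted p = 7.6e-06). In the fit of the 2 groups alone Minos1 (0.55, adjusted p = 0.0764) and Apoo (0.27, adjusted p = 0.0563) were not called, and Apoo was not called without SD replicate 1 (0.21, adjusted p = 0.0583). Adaptors and kinases had 3 of 9 up, Tax1bp1 (0.27, adjusted p = 1.7e-05), Optn (0.28, adjusted p = 0.00594) and Calcoco1 (0.19, adjusted p = 4.8e-04), and Ulk1 fell further (-0.15, adjusted p = 0.0196). The Ulk1 value in this comparison was not recomputed without replicate 6 or under the other settings. Without MET+LEU replicate 6, Optn was at 0.17 (adjusted p = 0.0580). The list of Pink1 and ubiquitin enzymes had 3 of 11 other genes up, Usp8 (0.21, adjusted p = 0.0209), the ubiquitin-conjugating enzyme gene Ube2n (0.17, adjusted p = 0.00364) and Usp15 (0.15, adjusted p = 0.0117); without replicate 6, Usp8 (0.10, adjusted p = 0.0755) and Usp15 (0.11, adjusted p = 0.0640) were not called, and with the GC content correction Ube2n (0.09, adjusted p = 0.213) and Usp15 (0.08, adjusted p = 0.132) were not. Usp8 was also not called without SD replicate 1 (adjusted p = 0.0644), 2 (adjusted p = 0.0572) or 3 (adjusted p = 0.0530), nor Usp15 without SD replicate 1 (adjusted p = 0.0657), and in the fit of the 2 groups alone Usp8 (adjusted p = 0.116), Usp15 (adjusted p = 0.0664) and Optn (adjusted p = 0.0550) were not called.

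Fission genes other than the members had none up and 2 of 10 down, the Dnm1l receptor gene Mief1 (-0.18, adjusted p = 0.00194) and the mitochondrial phosphatase gene Pgam5 (-0.20, adjusted p = 0.00825), beside the rise of Dnm1l. Of 8 other receptor genes, Nipsnap2 rose (0.18, adjusted p = 0.00233) and Ambra1 fell (-0.15, adjusted p = 0.00406; -0.10 and 0.0613 with the GC content correction), whereas Bnip3 stayed at the level of SD within its error (0.02, SE 0.11, adjusted p = 0.947). The protease gene Yme1l1, which cuts Opa1, was the 1 of 12 called in its list (0.11, adjusted p = 0.0400), and it lost its call in 29 of 37 alternatives, among them the GC content correction (0.02, adjusted p = 0.787) and the fit of the 2 groups alone (0.11, adjusted p = 0.175). Among 9 transport genes 3 rose, Armcx1 (0.25, adjusted p = 0.0130) and Armcx3 (0.23, adjusted p = 0.00545) among them, and Trak1 fell (-0.10, adjusted p = 0.0313). The Trak1 value was not recomputed under the alternatives. Armcx1 lost its call without replicate 6 (0.20, adjusted p = 0.0568), without SD replicate 1 (0.21, adjusted p = 0.0574) or 2 (0.20, adjusted p = 0.0640), and in the fit of the 2 groups alone (0.25, adjusted p = 0.0755). With MET or LEU alone, none of the 67 genes was called. With no filter on low counts 1 rose with MET, and without MET+LEU replicate 6 1 fell with LEU.

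As a reference for mitochondrial content, 13 import, porin, chaperone and matrix genes were counted. Under serum deprivation 2 rose, Timm23 (0.16, adjusted p = 0.00635) and Hspd1 (0.12, adjusted p = 0.0305), and 2 fell, with a median log2 fold change of 0.01. The Hspd1 call was lost without 2% HS replicate 3 (0.11, adjusted p = 0.0666) or 6 (0.10, adjusted p = 0.0932), and without SD replicate 3 (0.09, adjusted p = 0.129) or 6 (0.11, adjusted p = 0.0709). With MET+LEU 3 rose from SD, Hspd1 (0.20, adjusted p = 8.4e-04), Timm44 (0.18, adjusted p = 0.00873) and Tomm70a (0.11, adjusted p = 0.0361), none fell, and the median was 0.07. Tomm70a lost its call in 25 of 37 alternatives, with values of 0.03 with the GC content correction (adjusted p = 0.628) and 0.08 without MET+LEU replicate 6 (adjusted p = 0.159).

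**Figure D4:**
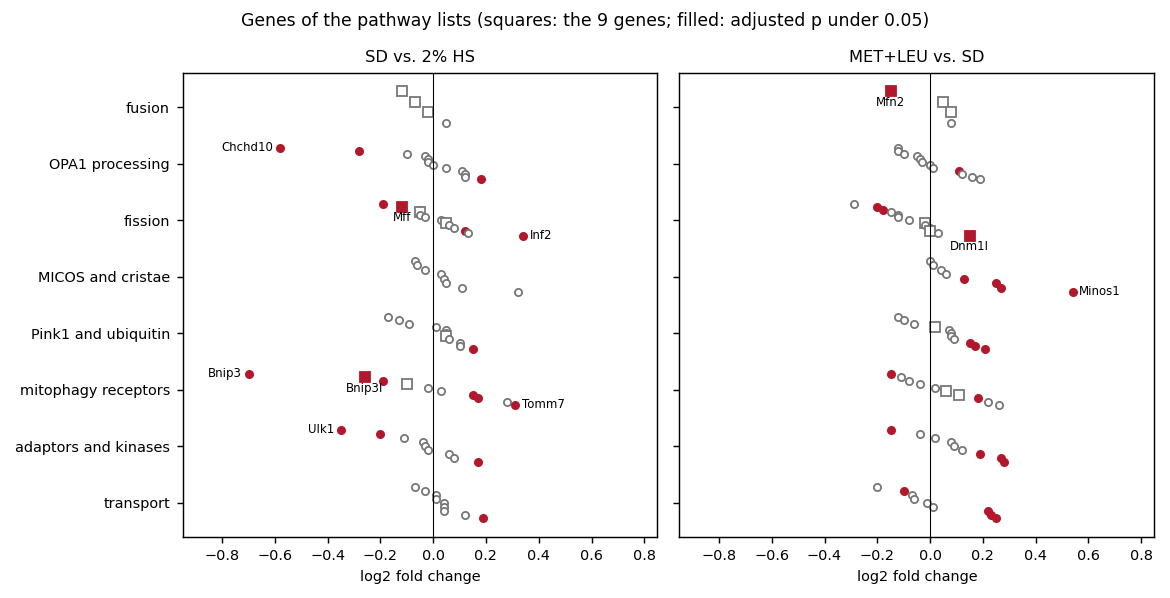
Log2 fold change (horizontal axis) of tested genes in 8 pathway lists (rows) for SD vs. 2% HS and MET+LEU vs. SD; squares are the 9 genes described here, circles the others, and filled red symbols have an adjusted p under 0.05. Bnip3 (-0.70) and Chchd10 (-0.58) lie farthest left under serum deprivation, and Minos1 (0.54) farthest right with MET+LEU.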

How the data were processed

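RNA of C2C12 myotubes was sequenced as ribosomal RNA-depleted, stranded, paired-end libraries. The authors deposited raw counts per Ensembl gene. The submitters' processing notes name cutadapt 1.16, STAR 2.7.6a, featureCounts 1.6.3, DESeq2 1.30.1 and GRCm38; the annotation release is not given in the sources used here. The file's raw counts were tested in R 4.3.3 with edgeR 4.0.16: filterByExpr over the 5 groups (minimum count 10, minimum total 15), TMM normalization, a quasi-likelihood fit with robust dispersion over all 30 libraries, and Benjamini-Hochberg adjustment over 15907 genes, with adjusted p under 0.05 as the threshold. SEs were taken from the F statistics, and 95% intervals are not adjusted for the number of comparisons. CPM use TMM-scaled totals, in which a floor of 3 counts is 0.152 to 0.243 CPM. Log2 CPM for correlations had a prior count of 2. The scripts were tested on simulated data. DESeq2 1.42.0 and 6 other settings, and leaving out each of the 30 libraries, were alternatives. Gene names, positions and GC content came from GENCODE M21, which matched 55227 of 55487 genes, and promoter windows from RefSeq. The members and gene lists were chosen with earlier results of these data known. Named besides the 9 members were, per pathway list, up to 3 called genes with the highest absolute log2 fold change and a mean log2 CPM of at least 1 in the comparisons of SD with 2% HS and of the combination with SD, and the 3 most similar genes of each member by Pearson's r. A few genes within this rule are counted but not named or drawn, and 1 result is not reported here, and Trak1, Ulk1, Bnip3 and Yme1l1 with MET+LEU, and Bnip3l-ps, were added by their role after their values were seen. All 75 pairs of libraries within a group differed by more than sampling noise (chi-square per degree of freedom at least 2.33).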

Additional observations from a re-analysis of the deposited data

Results flagged for a closer look

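In 45 tests, 1 for each of the 9 genes in each of the 5 groups of 6 libraries, the gap of the highest or lowest library to its nearest neighbour exceeded Dixon's 95% critical value, as a share of the group's range, in 4; chance flags about 1 in 20 groups. Opa1 was at 106 CPM in SD replicate 6, against 111 to 114 CPM in the other SD libraries. Dnm1l was at 165 CPM in MET+LEU replicate 6, against 139 to 147 CPM in the others of that group. Bnip3l was at 91.8 CPM in MET+LEU replicate 4, against 97.5 to 101 CPM. Fundc1 was at 26.9 CPM in 2% HS replicate 2, against 24.7 to 25.4 CPM. The cause of these 4 values was not tested. MET+LEU replicate 6, which had the rRNA shares given above, was also the lowest of its group for Mfn1, Mfn2, Fis1, Mff, Pink1 and Fundc1 and the highest for Opa1.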

How the results depend on the processing

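Each comparison was repeated under 37 alternatives, 7 settings and the omission of each of the 30 libraries. Of 8 called member values in the 8 comparisons listed in the design, 3 kept their call in every alternative: the falls of Bnip3l in SD and in MET+LEU, and that of Mfn2 in MET+LEU, each from 2% HS. No called value changed sign; among 2655 recomputed values 130 changed sign, none called and all within 0.07 on the log2 scale. The count of members changed in SD vs. 2% HS, 2 as reported, was 1 with no filter on low counts, 1 with the GC content correction and 1 to 3 without single libraries. In MET+LEU vs. SD, 2 as reported, it was 0 with only the groups compared, 1 with the GC content correction and 1 to 2 without single libraries. In MET+LEU vs. LEU, 1 as reported, it was 0 with upper-quartile normalization, 0 with only the groups compared, 0 with the GC content correction and 0 to 1 without single libraries, and in MET+LEU vs. MET, 0 as reported, 0 to 1 without single libraries. Mfn1 in SD vs. 2% HS passed with upper-quartile normalization (-0.13, adjusted p = 0.0320) and with DESeq2 (-0.11, adjusted p = 0.0458), among 13 of 37 alternatives. Dnm1l passed in MET+LEU vs. 2% HS without 2% HS replicate 2 (0.12, adjusted p = 0.0340) or MET+LEU replicate 3 (0.12, adjusted p = 0.0390), and from MET without MET+LEU replicate 3 (0.14, adjusted p = 0.0493). Apart from the GC content correction and the omissions, where the construction shows what was changed, the cause was not tested. Over 60 same-numbered pairs of libraries from different groups the mean correlation of deviations was 0.0245 (range -0.181 to 0.350), and 12 exceeded 0.1. For pairs of different number and group the mean was -0.00475. The labels did not say whether equal numbers mark paired samples, and these values do not settle it. The main fit therefore had no replicate block. With the replicate number as a block, the count of members changed was 4 in MET+LEU vs. 2% HS, since Dnm1l passed (0.10, adjusted p = 0.0462) and stayed as reported in the other 7 comparisons. Over all genes, 25 were called in MET vs. SD, 120 with DESeq2, 105 with no filter, 52 with the block and 50 with the GC content correction, and 4 without MET replicate 4 to 160 without MET+LEU replicate 6. The 88 in LEU vs. SD were 197 with only the groups compared and 43 to 269 without single libraries. With only the groups compared, the 2931 in MET+LEU vs. SD became 1422, the 999 in MET+LEU vs. LEU 311 and the 1382 in MET+LEU vs. MET 589. At these depths, members were held by at least 279 counts in any library, and differences within the printed intervals were not resolved.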
